A study of Mus musculus with 4 samples.

Results

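The 9 genes described here encode enzymes of the methionine cycle, of transsulfuration and of methyl transfer. They are Mat1a, Ahcy, Bhmt, Mtr, Gnmt, Pemt, Nnmt, Cbs and Cth, picked by gene name from the 22103 entries of an RNA-seq table of mouse liver. Whole-liver RNA came from 2 WT mice and 2 KO mice. In the KO mice Smarca4, the gene of the chromatin remodeler Brg1, is deleted in hepatocytes by crossing a floxed Smarca4 strain with Alb-Cre, and the WT mice were their littermates. The mice were males, 8 weeks old. All 4, the WT controls included, were given alcohol over 15 days as a liquid diet with a closing ethanol gavage (the NIAAA model). No group without alcohol is analysed here, so the comparison answers how the livers of the genotypes differed under ethanol and not how ethanol acted on these genes.

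The methionine cycle makes S-adenosylmethionine, the methyl donor of nearly all methyltransferases, and the liver is its main site. Methionine adenosyltransferase (Mat1a) makes the donor, methyltransferases such as Gnmt, Pemt and Nnmt spend it, and Ahcy splits the S-adenosylhomocysteine left behind into homocysteine. Homocysteine is turned back into methionine by Bhmt, with betaine as methyl donor, or by Mtr, with folate and cobalamin, or it leaves the cycle through Cbs and Cth towards cysteine. The pathway is known for its link to alcoholic liver injury and to fat storage in the liver.

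Levels are given as FPKM, fragments scaled to transcript length and to the mapped fragments of the library, so that genes of different length can be set side by side. Low FPKM values stepped by single reads and gave estimated totals of 72598578 to 80934664 reads per liver. Differences were tested with limma on log2(FPKM + 0.1) over 12346 genes whose mean reached 0.1 FPKM, and all 9 members passed this filter. The threshold of the study was kept, which asks for more than a 2-fold change and for p under 0.05 before adjustment. The study applied it to tests with the DESeq package, having obtained read counts, so its calls and those here need not match. The deletion showed in the libraries: Smarca4 was at 1.78 and 1.95 FPKM in WT against 0.608 and 0.579 FPKM in KO, and passed the threshold with a log2 fold change of −1.50 (SE 0.34, adjusted p = 1 in limma). A pseudocount of 1 shrinks the fold changes of genes at such low levels. With it Smarca4 was at −0.85, under 2-fold, and missed the threshold. Liver cells other than hepatocytes keep the gene. In whole tissue, fewer cells of a type and less RNA per cell cannot be told apart. The 8 hepatocyte markers were present in every liver, with Alb between 10710 and 12486 FPKM, and none passed the threshold. Among them, Tat was at 412 FPKM in KO replicate 1 against 126 to 158 FPKM in the other livers. The 11 macrophage markers summed to 48.8 and 49.9 FPKM in WT against 63.2 and 139 FPKM in KO. Of them 3 passed the threshold, all higher in KO, as did 0.437% of all genes tested. The number was 2 after the livers were rescaled by the median ratio over genes. It was 1 (Cd68) under quantile normalization and also with no filter. The 5 erythroid markers summed to 21.9 and 40.4 FPKM in WT against 181 and 26.8 FPKM in KO. KO replicate 1 thus stood apart, and 1 marker (Hbb-bs) passed. It did not stand apart for Alas2, at 5.03 and 7.43 FPKM in WT against 7.79 and 3.96 FPKM in KO. Sinusoidal endothelial, stellate, cholangiocyte, neutrophil and lymphocyte markers had 0 of 10, 0 of 10, 0 of 4, 0 of 5 and 0 of 1 tested genes past the threshold. The log2 fold change was below 0 for all 10 sinusoidal endothelial markers. Their median of −0.25 turned to 0.23 without KO replicate 1.

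None of the 9 members passed the threshold, and 0 of 9 had p under 0.05 in limma before adjustment. Of all genes tested, 0.98% passed the threshold (0.437% higher and 0.543% lower in KO), 2.0% had p under 0.05 before adjustment, and for 0 genes did the Benjamini-Hochberg adjusted p fall below it. All members, and every other gene named for its fold change, had an adjusted p of 1. The log2 fold change was above 0 for 7 members, against 46.1% of all genes, and below 0 for 2. It ran from −0.16 for Bhmt to 1.51 for Nnmt, with a median of 0.26 against −0.02 for all genes. This median was 0.20 without Nnmt and 0.10 under quantile normalization. The 9 genes together held 0.392% and 0.401% of the summed FPKM of the WT livers, and 0.534% and 0.46% in the KO livers. Such a share also depends on the other abundant genes in the sum, and its difference was not tested. After the livers were rescaled by the median ratio over genes, Cth and Mtr did not overlap between the groups. The more abundant members, such as Gnmt, Mat1a and Ahcy, did. With 2 livers in each group an exact permutation test cannot go below p = 0.333, so every limma p leans on a spread estimated from other genes as well. Whether the livers of a group came from separate litters or cages is not given in the sources used here, so p-values measure only the spread between these samples.

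**Figure D1:**
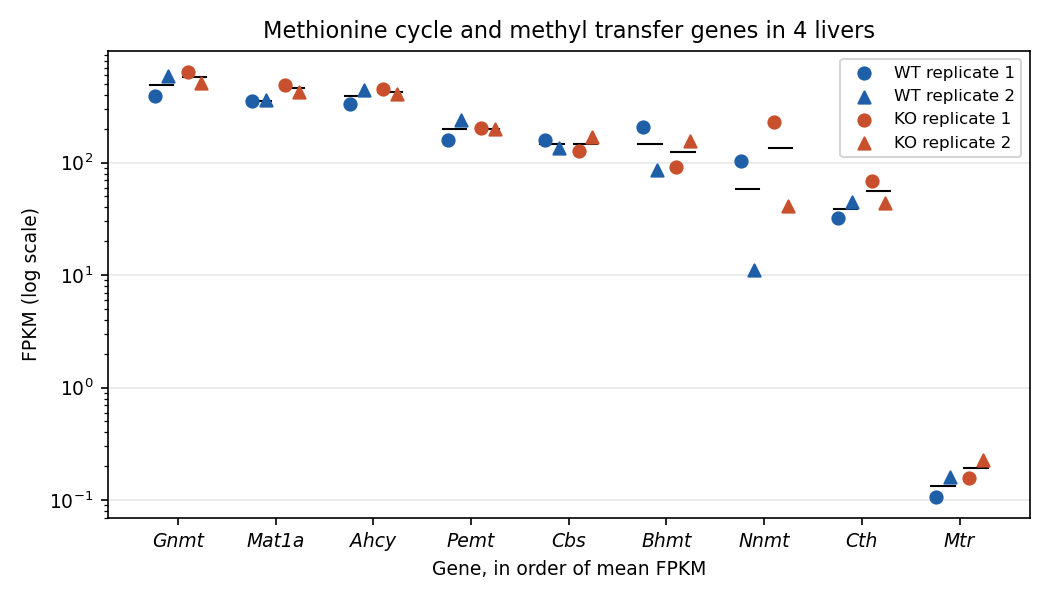
FPKM of the 9 genes on a log axis, ordered by mean level, with 1 point per liver (blue WT, red KO, circles replicate 1, triangles replicate 2) and a black line at each group mean. Of the 9 genes, 6 have a mean above 100 FPKM, Nnmt spreads from 11.2 to 229 FPKM, and Mtr lies far below the others at 0.108 to 0.227 FPKM.

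The order of abundance was as follows. Gnmt was highest with a mean of 533 FPKM over the 4 livers, followed by Mat1a at 407.0 and Ahcy at 406.8 FPKM, whose ranges overlapped and whose order changed in 1 of 4 livers. Gnmt was above Mat1a in 4 of 4 livers, although their ranges over the livers overlapped. Ahcy and Pemt (200.1 FPKM) were separate, with no overlap of their ranges. Below Pemt, the ranges of Cbs (147 FPKM), Bhmt (135 FPKM), Nnmt (96.6 FPKM) and Cth (47.4 FPKM) overlapped from each to the next, and Nnmt was above Cth in only 2 of 4 livers. Mtr, at a mean of 0.163 FPKM, was below every other member in 4 of 4 livers.

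Mat1a encodes the liver form of methionine adenosyltransferase. It was at 356 and 357 FPKM in WT against 492 and 424 FPKM in KO. Both KO livers were above both WT livers, and Mat1a was the only member whose groups did not overlap, against 20.7% of all genes tested. The means were 356 ± 1.27 and 458 ± 48.2 FPKM (SD, n = 2), and the log2 fold change came to 0.36 (95% interval −0.30 to 1.02). After the livers were rescaled by the median ratio over genes, the values were 390.3 and 317 in WT and 556 and 382 in KO, and the groups overlapped. Mat1a (ENSMUST00000047286) lies at chr14:41105381-41124412 of GRCm38, plus strand, with 9 exons. Mat2a, the form of most other tissues, stood at 3.33% and 4.95% of the Mat1a level in WT against 2.22% and 4.42% in KO. These shares overlapped between the groups (exact permutation test, two-sided, p = 0.667).

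Ahcy encodes S-adenosylhomocysteine hydrolase, which removes the product that inhibits methyltransferases. Its FPKM was 331 and 443 in WT against 450.3 and 403 in KO. The lower WT liver was below both KO livers and the other one lay between them. KO and WT differed by a log2 fold change of 0.15 (95% interval −0.53 to 0.83), and it turned to −0.05 under quantile normalization. Ahcy (ENSMUST00000054607, 10 exons) lies at chr2:155059310-155074497, minus strand, and overlaps an antisense gene, Gm45609. Whether strand was used to assign reads is not given in the sources used here, so the reads of such pairs may not be separated.

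Bhmt and Mtr perform the same step, the methylation of homocysteine to methionine, with betaine and with methylfolate as donors. Bhmt was at 206 and 86.1 FPKM in WT against 91.5 and 156 FPKM in KO. The WT livers lay at both ends and the KO livers between them, so the WT spread of 2.40-fold enclosed the KO group. This gave a log2 fold change of −0.16 (95% interval −1.06 to 0.74), and leaving out WT replicate 1 or KO replicate 1 turned it to 0.47 or 0.23. Bhmt is listed under ENSMUST00000124193, a 4-exon transcript of 3963 bases at chr13:93621881-93637566 (minus strand) that the annotation types as a retained intron, with the antisense gene Gm15622 overlapping. The entry may therefore not follow the coding transcript. Bhmt2, its neighbour on the chromosome and a near copy, stood at 14.6% and 32.6% of the Bhmt level in WT against 26.8% and 18.6% in KO. The groups overlapped (exact permutation test, two-sided, p = 1), and reads may have been shared between these paralogs.

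Mtr encodes the cobalamin-dependent methionine synthase. It was at 0.108 and 0.159 FPKM in WT against 0.157 and 0.227 FPKM in KO, from an estimated 72, 105, 102 and 137 reads. One KO liver was above both WT livers and the other lay just under the higher WT liver. For Mtr the log2 fold change was 0.32 (95% interval −0.47 to 1.12) on the log2(FPKM + 0.1) scale, which understates changes at this level, and 0.50 with a pseudocount of 0.01. Mtr (ENSMUST00000099856, 33 exons) lies at chr13:12182712-12258095, minus strand. In each liver Bhmt exceeded Mtr by a wide margin, 1920-fold and 541-fold in the WT livers and 583-fold and 686-fold in the KO livers.

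Because these genes serve the same reaction at levels 829-fold apart in the mean, the 250 bases before the RefSeq start of each are shown, with CG dinucleotides in capitals. Both are from GRCm38.p6, chromosome 13, minus strand, at chr13:93637759-93638008 for Bhmt and chr13:12258114-12258363 for Mtr, written 5′ to 3′ along the gene.
Bhmt: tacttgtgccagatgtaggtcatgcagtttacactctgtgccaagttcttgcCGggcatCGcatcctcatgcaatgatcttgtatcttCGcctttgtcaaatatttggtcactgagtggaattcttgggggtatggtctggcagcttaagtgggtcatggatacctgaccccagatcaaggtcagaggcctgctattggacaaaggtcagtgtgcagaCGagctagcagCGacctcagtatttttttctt
Mtr: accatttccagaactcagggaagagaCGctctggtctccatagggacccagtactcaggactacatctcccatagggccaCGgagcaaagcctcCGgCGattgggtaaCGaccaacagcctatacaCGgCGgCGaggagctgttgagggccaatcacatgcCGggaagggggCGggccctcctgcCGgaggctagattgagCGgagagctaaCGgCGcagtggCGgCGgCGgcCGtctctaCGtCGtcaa
The Bhmt stretch holds 5 CG dinucleotides at 48.0% G + C, and 49.6% of the 32851 promoters listed by RefSeq hold at most as many. The Mtr stretch holds 20 at 62.0% G + C, a number reached by 17.9% of the listed promoters. A promoter was listed for 6 of the 9 members. The less abundant gene of the pair thus has the CG-rich stretch, which is a description of these windows and no measure of their activity.

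Gnmt, Pemt and Nnmt spend the methyl donor. Gnmt encodes glycine N-methyltransferase, which disposes of surplus S-adenosylmethionine by making sarcosine. Its FPKM was 389 and 590.4 in WT against 639 and 512 in KO. KO replicate 1 was highest and WT replicate 1 lowest, and the other livers crossed over. The log2 fold change was 0.26 (95% interval −0.45 to 0.96). Leaving out WT replicate 1 or WT replicate 2 moved it to −0.05 or 0.56. The median of all genes then moved to −0.17 or 0.12. Gnmt (ENSMUST00000002846, 6 exons) lies at chr17:46725664-46729168, minus strand, overlapped on the opposite strand by the noncoding gene Gm26904.

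Pemt encodes phosphatidylethanolamine N-methyltransferase, which makes phosphatidylcholine for membranes and lipoprotein export. It was at 158 and 241 FPKM in WT against 202 and 199 FPKM in KO. Both KO livers lay inside the WT range. KO against WT came to a log2 fold change of 0.04 (95% interval −0.67 to 0.75), an interval from 0.628-fold to 1.68-fold. Pemt (ENSMUST00000102692, 7 exons) lies at chr11:59970614-60037005, minus strand.

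Nnmt encodes nicotinamide N-methyltransferase, which links the methyl donor to the nicotinamide pool. It had the widest spread of the 9 genes, at 104 and 11.2 FPKM in WT against 229 and 41.5 FPKM in KO. The groups overlapped, with WT replicate 2 lowest, KO replicate 2 next, then WT replicate 1, and KO replicate 1 highest. The 2 WT livers differed 9.30-fold and the 2 KO livers 5.52-fold, while the group means, 57.7 ± 65.8 and 135 ± 133 FPKM (SD, n = 2), differed 2.35-fold. The log2 fold change was 1.51 (SE 0.83, 95% interval −0.28 to 3.30, adjusted p = 1 in limma), not larger than the spread between livers of 1 genotype. The SE from the Nnmt values alone was 2.02, and limma lowered it to 0.83 by sharing variance across genes. It was −0.09 without WT replicate 2, 0.28 without KO replicate 1, 2.74 without KO replicate 2 and 3.11 without WT replicate 1, so single livers decided its size and sign. It passed the threshold when only genes from a mean of 1 FPKM were fitted, where limma used an SE of 0.66. The adjusted p was 1 in all fits but that without KO replicate 2, where it was adjusted p = 4.85e-05 in limma, with an SE of 0.51 against 2.78 from the 3 livers alone and with KO replicate 1 as the lone KO liver, assumed to vary like the WT livers. Nnmt (ENSMUST00000034808, 3 exons) lies at chr9:48591877-48605153, minus strand.

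**Figure D2:**
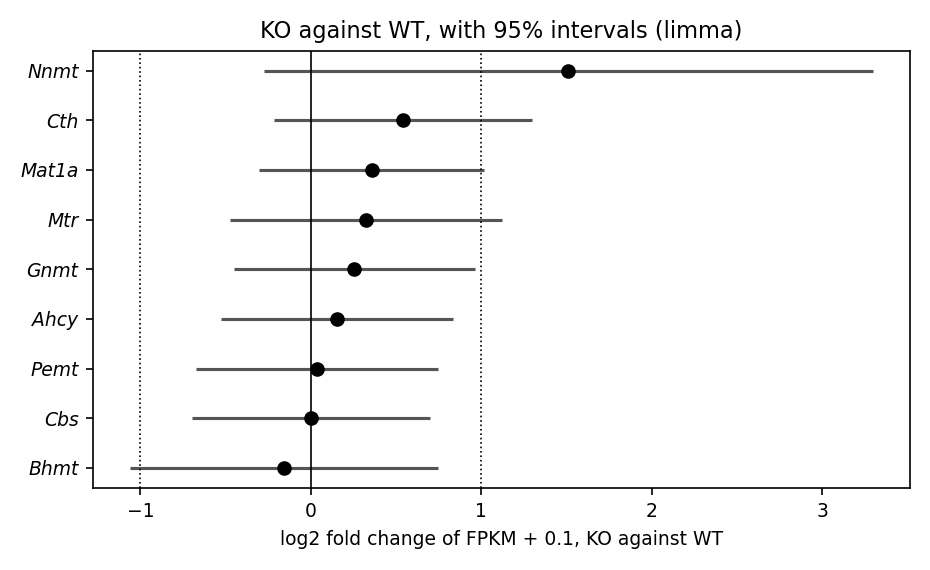
log2 fold change of KO against WT for each gene (points) with its 95% interval from limma (lines), on log2(FPKM + 0.1), dotted lines marking a 2-fold change. Every interval includes 0, and that of Nnmt is the widest, from −0.28 to 3.30.

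The spread of Nnmt between livers of the same genotype was set beside that of all genes. Its within-genotype SD was 2.02 on the log2(FPKM + 0.1) scale, larger than in 99.7% of the 1977 genes whose mean reached 10 FPKM, whose median was 0.28. Bhmt followed among the members with an SD of 0.74, larger than in 95% of those genes, and Mat1a had the lowest at 0.11, larger than in 6.22%. In both genotypes Nnmt was higher in replicate 1, as in 6.32% of all genes tested, while 59.8% were higher in replicate 2 in both. After median-ratio rescaling these shares were 25.8% and 24.8%, and Nnmt was still higher in replicate 1, at 114 against 9.94 in WT and 259 against 37.5 in KO. Nnmt made up 6.01% and 0.587% of the summed FPKM of the 9 genes in WT against 9.98% and 2.13% in KO.

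**Figure D3:**
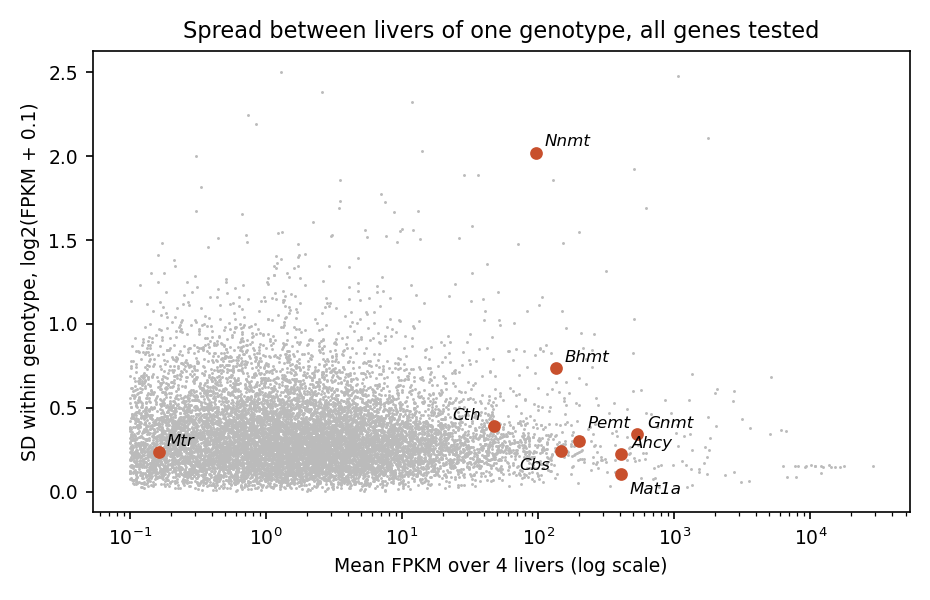
SD between livers of 1 genotype on the log2(FPKM + 0.1) scale against mean FPKM on a log axis, for each of the 12346 genes tested (grey) and the 9 members (red). Nnmt (SD 2.02) lies among the most variable genes at its level, Bhmt (0.74) is the next member, and Mat1a (0.11) is the least variable one.

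The genes whose pattern over the 4 livers was nearest to that of Nnmt were Lcn2, Saa1 and Saa2, among 7732 other genes whose mean reached 1 FPKM. Lcn2 encodes lipocalin 2 and Saa1 and Saa2 encode serum amyloid A proteins, products that the liver releases in the acute-phase response. The distance, taken between log2(FPKM + 0.1) values centred on each gene's mean, was 0.73 for Lcn2, 0.85 for Saa1 and 0.91 for Saa2. Lcn2 was at 842 and 116 FPKM in WT against 1175 and 337 FPKM in KO. Saa1 was at 3111 and 241 FPKM in WT against 3030.0 and 733 FPKM in KO. Saa2 was at 1826 and 95.8 FPKM in WT against 2002 and 341 FPKM in KO, 19.1-fold and 5.88-fold higher in replicate 1. Saa2 was the only other gene from 10 FPKM with at least the Nnmt difference between replicates in both genotypes. For these 3 genes too the genotypes overlapped, with log2 fold changes of 1.01, 0.78 and 0.98. The likeness is over 4 livers only and is given without a test. The 10 neutrophil markers, 5 of them above the expression filter, summed to 11.6 and 4.48 FPKM in WT against 16.6 and 8.21 FPKM in KO, also higher in replicate 1. S100a9 made up most of these sums, with 8.64 and 2.99 FPKM in WT against 12.3 and 6.10 FPKM in KO, while Csf3r was higher in replicate 2 of both genotypes and Elane in replicate 2 of KO. Of the 10, Mpo, Camp and Ltf were at 0 in both WT livers and Ly6g in WT replicate 2, and their part in the Nnmt values was not tested.

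**Figure D4:**
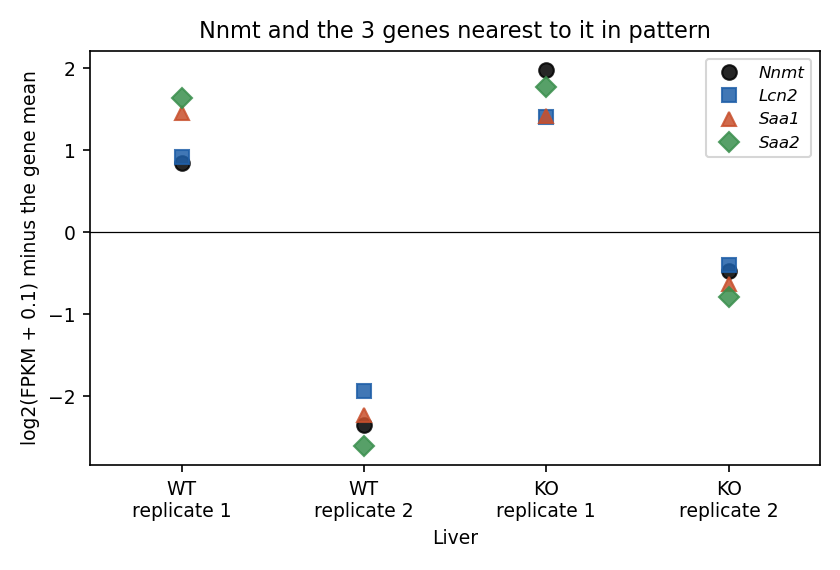
log2(FPKM + 0.1) minus the gene's mean over the 4 livers for Nnmt, Lcn2, Saa1 and Saa2, with 1 position per liver. All 4 genes lie above their mean in replicate 1 and below it in replicate 2 of both genotypes, lowest in WT replicate 2.

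The ratio of Nnmt to Gnmt within a liver does not depend on scaling between libraries. Nnmt stood at 26.8% and 1.90% of the Gnmt level in WT against 35.9% and 8.12% in KO. The groups overlapped (exact permutation test, two-sided, p = 0.667), and the difference of the log2 ratios of 1.26 turned to −0.65 without WT replicate 2.

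Cbs and Cth carry homocysteine to cysteine. Cbs encodes cystathionine β-synthase and was at 158 and 135 FPKM in WT against 126 and 170 FPKM in KO. The KO livers lay on either side of both WT livers. Its log2 fold change was −0.001 (95% interval −0.70 to 0.70), and 0.03 after median-ratio rescaling. Cbs (ENSMUST00000067801, 17 exons) lies at chr17:31612623-31637238, minus strand.

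Cth encodes cystathionine γ-lyase, which releases cysteine. It was at 32.4 and 44.3 FPKM in WT against 68.7 and 44.2 FPKM in KO. KO replicate 1 was above both WT livers, while KO replicate 2 was at the level of WT replicate 2. Cth had a log2 fold change of 0.54 (SE 0.35, 95% interval −0.21 to 1.30), and 0.22 without KO replicate 1. KO replicate 1 was also the liver with the highest sum of erythroid markers and the highest Tat. Their part in the Cth values was not tested. Cth (ENSMUST00000118539, 12 exons) lies at chr3:157894248-157925077, minus strand, and shares that strand with an overlapping gene, Gm43314, whose reads strand could not separate. The ratio of Cth to Cbs was 20.5% and 32.7% in WT against 54.6% and 26% in KO, again with KO replicate 1 highest (exact permutation test, two-sided, p = 0.667). The difference of the log2 ratios was 0.54, and 0.0086 without KO replicate 1.

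The other genes around the cycle were taken from 9 lists with 151 genes, of which 148 were tested. Of these, 1 passed the threshold, higher in KO, which is 0.676% against 0.98% over all genes. The groups did not overlap for 18.2% of them, against 20.7% of all genes. The median of each of these lists changed sign when single livers were left out. That of all genes did so too, moving to −0.17 without WT replicate 1 and 0.12 without WT replicate 2. It moved to 0.12 without KO replicate 1 and −0.17 without KO replicate 2. These sign changes are therefore not particular to the lists. Among 8 paralogs and partners of the cycle, 0 passed, with log2 fold changes from −0.13 (Mat2b) to 0.25 (Ahcyl2). Like Bhmt, the entries of Mat2b and Etnk2 are typed as retained introns, and that of Amt as a processed transcript, so they may not follow the coding transcripts. The most abundant was Adk, adenosine kinase, which removes the adenosine made by Ahcy, at 65.1 and 69.5 FPKM in WT against 60.1 and 68.9 FPKM in KO. Of 12 genes that supply betaine, choline and glycine, 0 passed and 9 were above 0, up to 0.22 for Agxt and down to −0.20 for Amt, a glycine cleavage subunit. Sardh, which returns the sarcosine made by Gnmt to glycine, was at 84.5 and 92.5 FPKM in WT against 99.6 and 99.7 FPKM in KO. Its groups did not overlap, but did after median-ratio rescaling.

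Of 11 tested genes of phosphatidylcholine synthesis, 0 passed, with values from −0.12 (Cept1) to 0.54 (Etnk2). Pcyt2, which makes the CDP-ethanolamine used for phosphatidylethanolamine, the substrate of Pemt, was the most abundant at 79.0 and 124 FPKM in WT against 82.6 and 109 FPKM in KO. Etnk2, an ethanolamine kinase, was at 9.47 and 6.33 FPKM in WT against 18.5 and 6.91 FPKM in KO, high in KO replicate 1 alone.

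Of 26 tested genes of folate and cobalamin supply, Folr2 passed the threshold. It encodes a folate receptor that macrophages carry, and was at 0.927 and 1.51 FPKM in WT against 2.29 and 4.56 FPKM in KO, without overlap. Folr2 had a log2 fold change of 1.38 (SE 0.40, adjusted p = 1 in limma). Folr2 lost the threshold without WT replicate 1 (1.05, over 2-fold but with p above 0.05), without KO replicate 2 (0.89, under 2-fold) and with a pseudocount of 1 (0.96). The 11 macrophage markers were above 0 in 11 of 11 cases with a median of 0.84, which was 0.25 without KO replicate 2 and 1.39 without KO replicate 1, and their part in the Folr2 value was not tested. The most abundant gene was Tcn2, the cobalamin carrier transcobalamin, at 78.0 and 91.5 FPKM in WT against 95.2 and 98.6 FPKM in KO. Cd320, the receptor that takes up this carrier, had the lowest log2 fold change at −0.36.

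Of 14 genes of cysteine, taurine, sulfide and glutathione metabolism downstream of Cth, 0 passed, 4 were above 0, against 46.1% of all genes, and the median was −0.21. Leaving out WT replicate 2 or WT replicate 1 moved this median to 0.054 or −0.40, and that of all genes to 0.12 or −0.17. Csad, which makes hypotaurine on the way to taurine, was at 42.7 and 84.8 FPKM in WT against 38.2 and 26.5 FPKM in KO. Both KO livers were below both WT livers, with a log2 fold change of −0.92 (SE 0.38, adjusted p = 1 in limma) that was under 2-fold. Csad passed the threshold when WT replicate 1 (−1.41) or KO replicate 1 (−1.18) was left out, and did not when WT replicate 2 (−0.42) or KO replicate 2 (−0.66) was. Cdo1, which opens the same route from cysteine, was the most abundant at 519 and 486 FPKM in WT against 488 and 312 FPKM in KO (log2 fold change −0.36). Got1 was highest in KO replicate 1, at 202 FPKM against 61.6 to 76.6 FPKM in the other livers.

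Of 13 tested small-molecule methyltransferase genes and their partners, 0 passed. Gamt, which makes creatine, had the highest log2 fold change at 0.27. Tpmt, thiopurine methyltransferase, had the lowest at −0.57, with 54.9 and 52.6 FPKM in WT against 32.9 and 39.7 FPKM in KO and no overlap. Of 18 genes of nicotinamide and NAD metabolism, the pathway that Nnmt draws on, 0 passed and the median was 0.04. Tdo2, the first enzyme from tryptophan, was the most abundant, at 254 and 201 FPKM in WT against 454 and 125 FPKM in KO. Aox3, an aldehyde oxidase, had the highest log2 fold change at 0.85, from 1.05 FPKM in WT replicate 1 against 5.28 to 9.27 FPKM in the other livers, and Nmrk1 the lowest at −0.33.

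**Figure D5:**
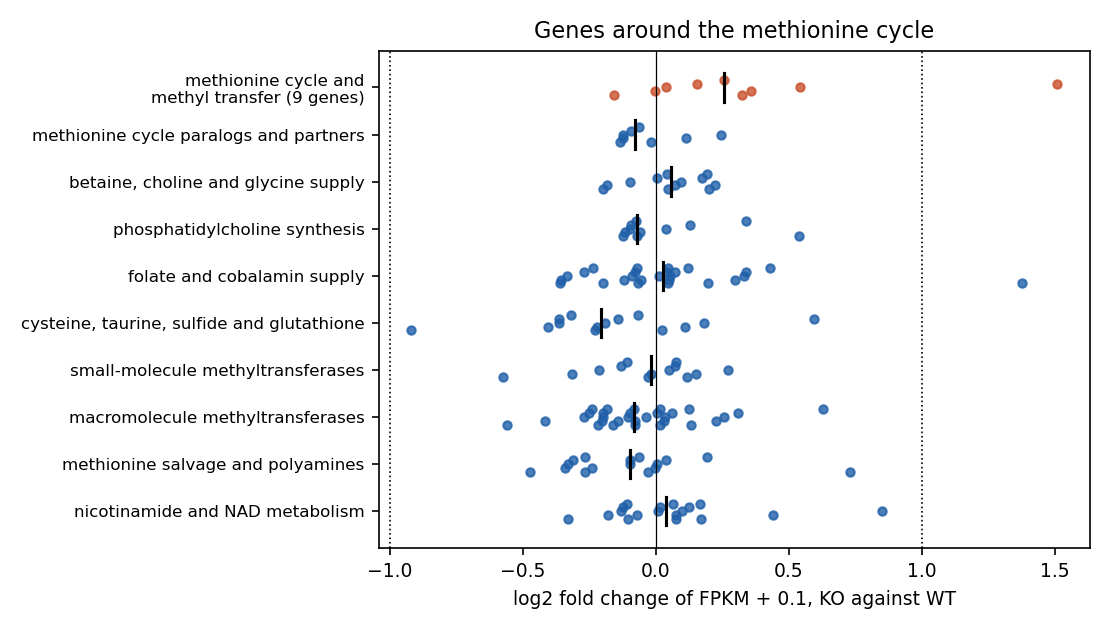
log2 fold change of KO against WT on log2(FPKM + 0.1) for each tested gene of the 9 members (red) and of the 9 surrounding lists (blue), with a black line at each list's median and dotted lines at a 2-fold change. Beyond the upper dotted line lie Nnmt (1.51, which did not pass) and Folr2 (1.38), and no gene lies beyond the lower one.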

How the data were processed

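The authors deposited 1 FPKM value per gene and liver. Per their methods, reads were trimmed with Trimmomatic, mapped to GRCm38 with HISAT2 and turned into FPKM with Cufflinks. The submitters' processing notes name HISAT2 2.0.4 and StringTie 2.1.4. The labels name a BGIseq protocol and the methods an Illumina one. No scaling between libraries is stated, and FPKM shifts when a few abundant genes change.

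Symbols turned into dates were restored (27), and positions came from GENCODE M21 by transcript identifier (98.6% matched). Read totals were estimated from the FPKM steps of transcripts of at least 2000 bases, where 88.5% to 89.7% of values up to 20 reads lay within 0.1 of a whole read. Such estimates cover counting error only, and whether a read is a pair is unknown.

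KO was compared with WT by limma 3.58.1 (R 4.3.3), using lmFit and the trended eBayes, with both groups in 1 fit without covariates. Within-liver ratios used an exact permutation test in Python 3.11.15. Alternatives were other pseudocounts, filters and scalings, no trend, a replicate block and each liver left out.

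The members and lists were chosen with earlier results of these data known. The text names every member, Smarca4, the genes of each pathway list past the threshold or with the highest mean, highest or lowest log2 fold change, and the 3 genes nearest in pattern to the member with the largest change. Hbb-bs and the genes used as marker or ratio examples fall outside this rule and were named after their values were seen. One result under this rule is not reported here.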

Additional observations from a re-analysis of the deposited data

How the results depend on the processing

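Having 2 mice per genotype limits these results, and among the members depth bears most on Mtr, which was not tested with the filter at 1 FPKM. Nnmt passed the threshold, with a log2 fold change of 1.51, when only genes from a mean of 1 FPKM were fitted and with the replicate number as a block (adjusted p = 1 in limma for both), so the number of members past the threshold was 1 in both instead of 0. The replicate numbers share no litter or batch in the labels, so the block was not used. The deviations of same-numbered livers correlated at 0.0513 over 7733 genes. A correlation leaves out a shift common to all genes. Of all genes tested, 59.8% were higher in replicate 2 in both genotypes, against 6.32% in replicate 1. After median-ratio rescaling these shares were 24.8% and 25.8%. The correlation therefore cannot show whether same-numbered livers share a common shift in level. The block left Nnmt an SE of 0.27 against 0.83. Small values changed sign: Ahcy to −0.048 and Pemt to −0.10 under quantile normalization, and Cbs to 0.032 after median-ratio rescaling. The median of the members was 0.10 under quantile normalization. Smarca4 was at −0.85 with a pseudocount of 1 and missed the threshold. Members without overlap numbered 2 (Cth and Mtr, not Mat1a) after median-ratio rescaling, where 29.0% of genes did not overlap, a check added after the data were seen. Genes past the threshold, 121 in all, numbered 18 with a pseudocount of 1, 80 with no filter and 68 with the filter at 1 FPKM. Genes with an unadjusted p under 0.05, 247 in all, numbered 430 with no filter, 150 with the filter at 1 FPKM and 375 under quantile normalization. The filter at 1 FPKM left 7733 genes to test instead of 12346, and leaving out the filter added genes. The counts under different filters therefore do not compare directly, as they are out of different numbers of genes tested. With the filter at 1 FPKM, Cxcl14 and Cyp17a1, named after their values were seen, were the only genes with an adjusted p under 0.05 (2 against 0).

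With each liver left out in turn, the log2 fold change ranged from −0.094 to 3.11 for Nnmt, −0.79 to 0.47 for Bhmt, −0.056 to 0.36 for Ahcy, −0.046 to 0.56 for Gnmt, −0.22 to 0.21 for Cbs, −0.27 to 0.34 for Pemt, 0.25 to 0.46 for Mat1a, 0.22 to 0.86 for Cth, 0.15 to 0.50 for Mtr and −1.56 to −1.44 for Smarca4. Among the members only Nnmt exceeded a 2-fold change, at 3.11 without WT replicate 1 and 2.74 without KO replicate 2. In each of these fits 1 genotype kept a single liver. The SE of Nnmt in limma then rested mostly on other genes, and wholly on the trend across genes without KO replicate 2. The genes past the threshold ranged from 78 to 552, those with an unadjusted p under 0.05 from 91 to 1109, and those with an adjusted p under 0.05 from 0 to 269. The differences of the log2 ratios ranged from −0.87 to 0.12 for Mat2a to Mat1a, −0.54 to 0.62 for Bhmt2 to Bhmt, −0.65 to 3.17 for Nnmt to Gnmt and 0.0086 to 1.08 for Cth to Cbs. The median log2 fold change of all genes ranged from −0.17 to 0.12 in the same fits. Fits without a liver rest on 3 livers by construction. For the other changes, the cause was not tested.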

Other observations

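The 2 lists that lie farthest from the cycle were also described. Of 30 genes for methyltransferases of DNA, RNA and protein, 0 passed the threshold, 12 were above 0 and 18 below. Their median log2 fold change of −0.08 ranged from −0.23 to 0.16 when each liver was left out, against −0.17 to 0.12 for all genes. Pcmt1, a protein repair methyltransferase, was the most abundant at 11.3 and 14.2 FPKM in WT against 11.2 and 14.6 FPKM in KO. Trdmt1, a tRNA methyltransferase, had the highest log2 fold change at 0.63, with 0.183 and 0.106 FPKM in WT against 0.338 and 0.218 FPKM in KO. Kmt5a, a histone H4 methyltransferase, had the lowest at −0.56, with 2.53 and 3.81 FPKM in WT against 1.89 and 2.28 FPKM in KO. In both genes the groups did not overlap, as in 20.7% of all genes tested. After median-ratio rescaling the groups of Trdmt1 overlapped. All genes named here had an adjusted p of 1 in limma.

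Of 16 genes of methionine salvage and polyamine synthesis, a second outlet of S-adenosylmethionine, 0 passed, 4 were above 0, against 46.1% of all genes, and the median was −0.10. Leaving out WT replicate 2 or WT replicate 1 moved this median to 0.13 or −0.41, and that of all genes to 0.12 or −0.17. Srm, spermidine synthase, had the highest log2 fold change at 0.73. It was at 5.97 and 5.34 FPKM in WT against 6.21 and 14.3 FPKM in KO, so KO replicate 2 held most of the difference. Sms, spermine synthase, had the lowest at −0.47, from 1.02 FPKM in WT replicate 2 against 0.482 to 0.537 FPKM in the other livers. Sat1, which acetylates polyamines, was the most abundant, between 30.1 and 42.5 FPKM with overlap of the groups. Its entry is typed as a retained intron and may not follow the coding transcript.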
